A study of Mus musculus with 4 samples.

Results

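The creatine cycle genes were taken as 7 mouse genes that make, import, phosphorylate or dephosphorylate creatine: *Gatm*, *Gamt*, *Slc6a8*, *Ckb*, *Ckmt1*, *Ckmt2* and *Alpl*. They were chosen by name, and each was read as the chromatin peaks that overlap its gene body or the 2000 bases upstream. A peak was found for 6 of the 7, with 29 of the 189598 peaks in all, while 17196 protein-coding genes had a peak. Accessibility had been measured in single nuclei (snATAC-seq) of whole inguinal white adipose tissue (iWAT), a subcutaneous fat depot in which cold induces beige adipocytes. The mice were male C57BL/6 animals aged 8 weeks. They were kept at 22 °C (day0RT), held at 6.5 °C for 1, 3 or 7 days (day1C, day3C, day7C), or injected at room temperature with 1 mg/kg of CL-316,243, an agonist of the β3-adrenergic receptor, for 1, 3 or 7 days (day1CL, day3CL, day7CL). Each of the 7 groups held 3 mice. The 21 mice gave 32552 nuclei in 12 clusters. The clusters are called here by their deposited cell type names.

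Creatine is made in 2 steps. *Gatm* encodes the amidinotransferase that joins arginine and glycine to guanidinoacetate, and *Gamt* encodes the methyltransferase that completes creatine. *Slc6a8* encodes the transporter that brings creatine into cells. Creatine kinases transfer phosphate from ATP to creatine: *Ckb* encodes the brain-type cytosolic enzyme, *Ckmt1* the ubiquitous mitochondrial enzyme and *Ckmt2* the sarcomeric mitochondrial enzyme of heart and skeletal muscle. In thermogenic fat, phosphocreatine can be hydrolysed again without doing work, so that ATP is turned over and heat is released. *Alpl* encodes the tissue-nonspecific alkaline phosphatase to which that hydrolysis has been ascribed, and *Ckb* the kinase that feeds it.

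The reference sequence of the peaks on which the results turn is shown here first, from the GRCm38 (mm10) assembly, 5′ to 3′ on the strand of the gene. A window of 300 bases around the centre of each peak was searched on both strands for 9 motifs, and capitals mark a match. *Alpl* peak 4 lies in an intron at chr4:137783519-137784343, with its centre 12453 bases past the gene start, and was the *Alpl* peak with the most counts in adipocytes. *Alpl* peaks 14 (chr4:137747101-137747627) and 16 (chr4:137744539-137745191) lie in introns towards the 3′ end and were picked after their values in beige and white nuclei had been seen. Their windows are chr4:137783782-137784081, chr4:137747215-137747514 and chr4:137744716-137745015, all on the minus strand.
Alpl peak 4: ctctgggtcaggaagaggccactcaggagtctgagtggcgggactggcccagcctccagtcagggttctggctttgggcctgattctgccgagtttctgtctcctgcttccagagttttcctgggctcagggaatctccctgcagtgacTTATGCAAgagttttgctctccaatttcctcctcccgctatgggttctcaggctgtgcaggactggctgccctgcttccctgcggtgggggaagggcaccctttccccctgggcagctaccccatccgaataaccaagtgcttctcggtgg
Alpl peak 14: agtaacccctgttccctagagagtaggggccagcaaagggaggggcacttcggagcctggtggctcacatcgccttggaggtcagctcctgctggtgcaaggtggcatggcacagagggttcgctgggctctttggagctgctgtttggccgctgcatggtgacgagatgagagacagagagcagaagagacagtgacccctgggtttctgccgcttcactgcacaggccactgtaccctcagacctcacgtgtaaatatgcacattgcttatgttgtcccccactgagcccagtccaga
Alpl peak 16: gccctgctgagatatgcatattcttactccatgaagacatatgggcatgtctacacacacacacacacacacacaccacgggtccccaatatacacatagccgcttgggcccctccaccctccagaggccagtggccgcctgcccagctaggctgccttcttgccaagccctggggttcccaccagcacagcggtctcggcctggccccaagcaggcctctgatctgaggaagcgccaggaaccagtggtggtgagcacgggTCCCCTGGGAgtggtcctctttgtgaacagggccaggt

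*Ckmt2* peak 1 lies upstream of the gene at chr13:91877376-91877618, centred at -612 from the start, and *Slc6a8* peak 3 lies in an intron at chrX:73674402-73674892. Both are shown because they carried much of the signal in the cluster labelled VSMC. *Gatm* peak 1 lies upstream at chr2:122611622-122611966 and is shown for its signal in macrophages and dendritic cells. Their windows are chr13:91877348-91877647 (minus strand), chrX:73674498-73674797 (plus strand) and chr2:122611645-122611944 (minus strand).
Ckmt2 peak 1: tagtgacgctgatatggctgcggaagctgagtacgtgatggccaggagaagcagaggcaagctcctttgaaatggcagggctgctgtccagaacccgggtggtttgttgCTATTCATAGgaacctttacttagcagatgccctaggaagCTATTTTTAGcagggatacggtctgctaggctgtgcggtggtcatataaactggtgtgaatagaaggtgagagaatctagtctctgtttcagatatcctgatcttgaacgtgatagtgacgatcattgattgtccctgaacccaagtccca
Slc6a8 peak 3: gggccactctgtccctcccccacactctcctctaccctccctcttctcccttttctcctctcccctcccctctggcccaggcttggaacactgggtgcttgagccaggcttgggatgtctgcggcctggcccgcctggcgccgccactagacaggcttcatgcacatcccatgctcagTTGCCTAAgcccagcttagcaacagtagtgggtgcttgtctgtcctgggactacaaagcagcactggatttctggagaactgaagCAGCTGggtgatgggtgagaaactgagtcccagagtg
Gatm peak 1: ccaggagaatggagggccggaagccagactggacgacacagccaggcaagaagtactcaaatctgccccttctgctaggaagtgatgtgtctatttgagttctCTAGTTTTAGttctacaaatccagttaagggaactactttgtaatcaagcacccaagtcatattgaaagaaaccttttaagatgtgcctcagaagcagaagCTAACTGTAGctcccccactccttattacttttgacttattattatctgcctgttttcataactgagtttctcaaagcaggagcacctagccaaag

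At the gene starts only the 30 bases around a match are shown. *Ckmt2* peak 2 holds an ERR match (chr13:91876807-91876836, minus strand) and a muscle E-box (chr13:91876975-91877004, minus strand), and *Ckb* peak 1 holds a MEF2 match (chr12:111672348-111672377, minus strand).
Ckmt2 peak 2 ERR site: tcctccagctTCAAGGTCAgtcagatgctc
Ckmt2 peak 2 E-box site: ccttcaaggacaCAGCTGggggagtctgtg
Ckb peak 1 MEF2 site: aatgaatgggCTATAAATAGccgccaatgg

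The motifs were ERR (TCAAGGTCA, found in 0.632% of all 189598 peak windows of that length), DR1 (AGGNCANAGGNCA, 0.742%), CEBP (TTGCNNAA, 18.5%), EBF (TCCCNNGGGA, 1.50%), CRE (TGACGTCA, 0.478%), GR (ACANNNTGT, 10.8%), MEF2 (CTANNNNTAG, 4.88%), the muscle E-box (CAGCTG, 20.8%) and PU.1 (GAGGAAGT, 4.86%). The window of *Ckmt2* peak 1 held 2 matches to the MEF2 pattern, as did that of *Gatm* peak 1. This pattern leaves its central bases (N) free, as in CTAACTGTAG of *Gatm* peak 1. In *Ckmt2* peak 2 the E-box stood at -107 to -102 from the gene start, and the ERR match, the letters bound by oestrogen-related receptors, at 59 to 67. The *Ckb* match stood at -29 to -20 and overlaps the letters of a TATA box. *Alpl* peak 4 held a CEBP match and *Alpl* peaks 13 and 16 each held an EBF match, while none of the 9 motifs was written in the window of *Alpl* peak 14. In the RefSeq promoters of GRCm38.p6, which reach from 250 bases before to 50 bases after a start, 6 of the 7 genes had an entry. The *Ckb* promoter held the same MEF2 match, a motif found in 3.69% of 32851 promoters, and those of *Ckmt1*, *Ckmt2* and *Alpl* held an E-box, found in 16.3%. A match is a description of the letters only.

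A mouse gave 1111 to 2021 nuclei with 1340376 to 6916698 counts. Levels are counts scaled to 1000000 counts on genes (CPM), where a count is a nucleus with a read in a peak, summed for each mouse and cluster with at least 10 nuclei. Levels of different genes depend on how many peaks each holds and are not compared. Of the nuclei, 8739 (26.8%) bear a barcode sequence that also occurs in another mouse, always within 1 treatment and never within 1 group. The 12 clusters had been drawn from the same peaks, so a difference between clusters is not independent of how they were made.

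The label VSMC, for vascular smooth muscle cells, went against the markers. Of 12 skeletal muscle genes listed, 11 had a peak and 10 of these were highest in this cluster: pooled *Ckm*, the muscle creatine kinase, stood at 295 CPM against 67.1 in the next cluster, and *Ttn*, titin, at 484 against 42.9. The summed skeletal muscle list ranged from 2023 to 2648 CPM over the VSMC libraries. Of 7 smooth muscle and pericyte genes, 5 were highest in the APC2 cluster, among them *Acta2* (13.6 in VSMC against 99.5 CPM) and *Rgs5* (5.09 against 101). The paper names APC2 as adipocyte progenitors, but of 5 progenitor genes listed 0 were highest there. Their summed mean was 158 CPM in APC2 and 448 CPM in APC1. The cluster labelled VSMC is therefore called the VSMC-labelled cluster below. It reached 10 nuclei in 10 mice, none of them in day0RT or day1C.

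**Figure D1:**
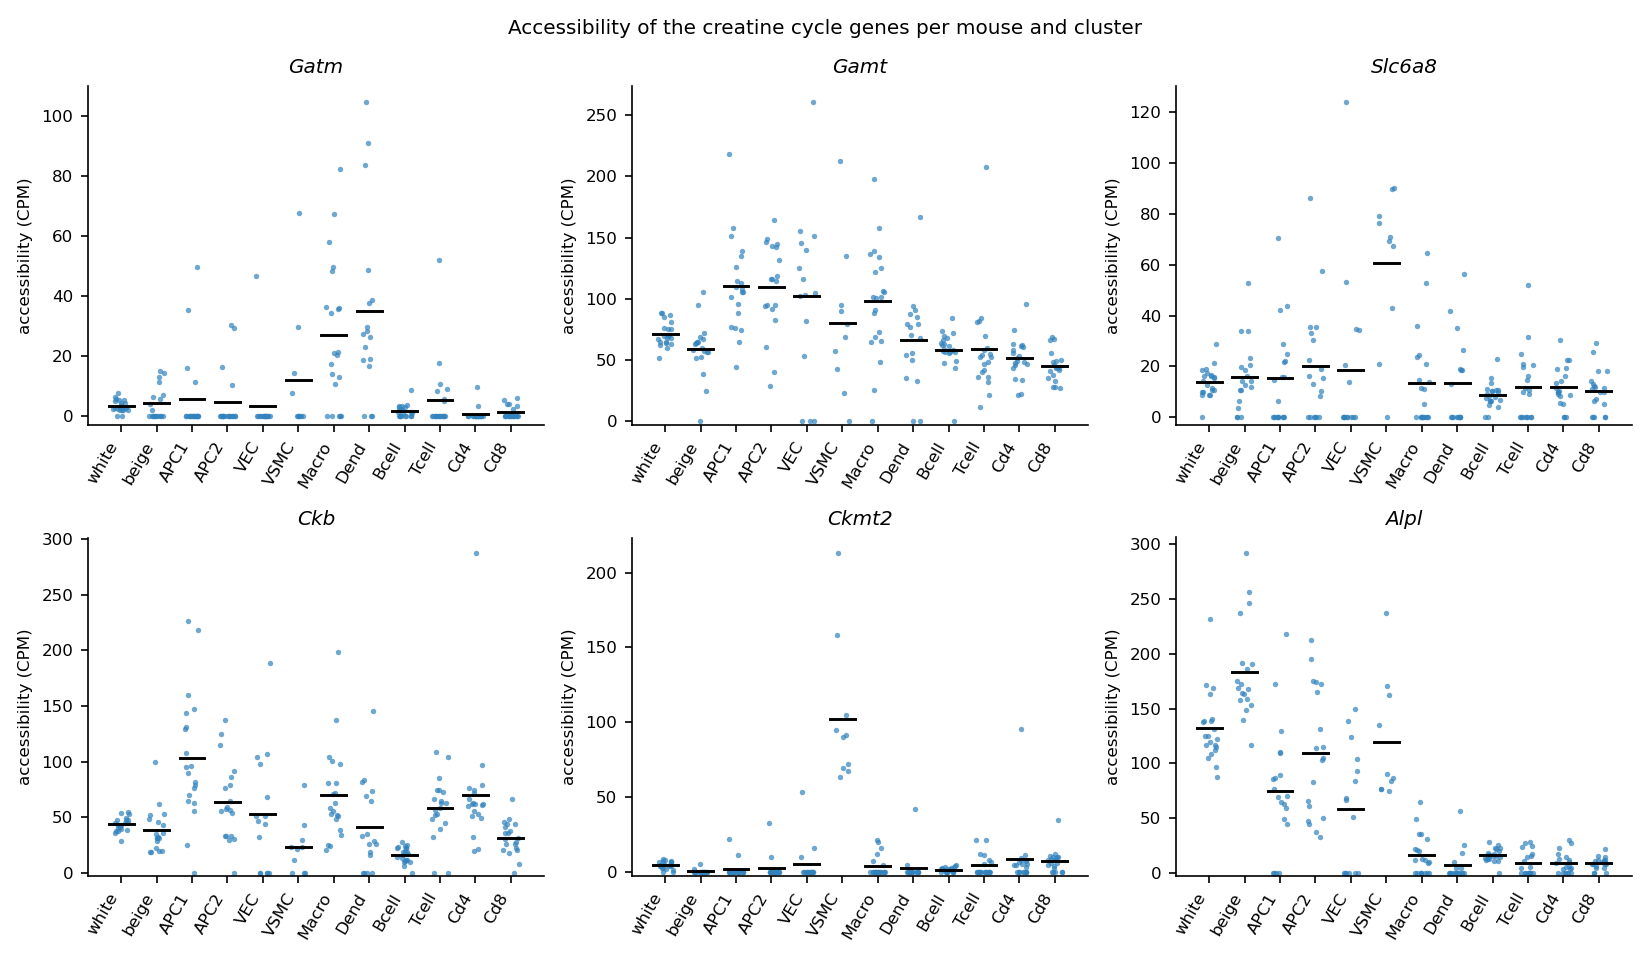
Accessibility (CPM, y axis) of the 6 creatine cycle genes with a peak in each of the 12 clusters (x axis). Points are mice and bars mark means. *Alpl* stands highest in beige adipocytes at 184 CPM, *Ckmt2* and *Slc6a8* in the VSMC-labelled cluster at 102 and 60.7 CPM, and *Gatm* in dendritic cells at 34.8 CPM.

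Neither gene of creatine synthesis was highest in adipocytes. *Gatm* (chr2:122594467-122611303) was highest in dendritic cells, at 34.8 ± 31.1 CPM (SD, n = 17 mice), and macrophages, at 26.9 ± 23.9 CPM (n = 21). In dendritic cells the lowest, median and highest mouse stood at 0, 27.1 and 105 CPM, and in macrophages at 0, 21.0 and 82.2 CPM. White adipocytes stood at 3.28 ± 1.96 CPM (n = 21) and beige adipocytes at 4.12 ± 5.48 CPM (n = 19). Macrophages and dendritic cells, myeloid cells of the tissue, were not separated by the permutation test of neighbouring levels, and some mice had no count in either. With only nuclei of at least 2000 counts, macrophages were highest, at 29.1 CPM. By pooled counts macrophages held 7.96 times the *Gatm* level of white adipocytes (95% interval 5.32 to 11.8, counting error only).

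*Gatm* was too sparse for the filter on low counts in macrophages against B cells, a comparison within the same 21 mice in which 48.6% of 6508 genes passed the threshold (adjusted p under 0.05, edgeR quasi-likelihood test with Benjamini-Hochberg adjustment). Without the filter, where 52.4% of all genes passed, *Gatm* was higher in macrophages by 2.13 on the log2 scale (SE 0.23, edgeR adjusted p = 3.46e-19), at 26.9 against 1.66 CPM and in 16 of 21 mice. Its 2 peaks shared the signal: the upstream peak printed above held 24 of the macrophage counts and the peak over the gene start 21, and in dendritic cells the 2 held 16 and 18. In white adipocytes the gene-start peak held 49 of 65 counts.

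*Gamt* (chr10:80258151-80261012) was read through 2 peaks that both also count for its neighbour *Dazap1*, so that the 2 genes cannot be told apart. It ranged only from 44.9 CPM in Cd8 T cells to 110 CPM in APC1, the other cluster that the paper names as progenitors. The levels in order were APC1 (110 ± 38.5 CPM, n = 20), APC2 (109), vascular endothelial cells (VEC, 102), macrophages (97.8), the VSMC-labelled cluster (80.3), white adipocytes (71.3 ± 10.1, n = 21), dendritic cells (66.2), beige adipocytes (58.9 ± 22.5, n = 19), T cells (58.5), B cells (58.2), Cd4 T cells (51.4) and Cd8 T cells. No neighbours in that order were separated beyond their spread, and the highest cluster became APC2 with promoter peaks only (236 CPM) and VEC with at least 30 nuclei per library (103 CPM). Macrophages exceeded B cells by 0.82 on the log2 scale (SE 0.13, edgeR adjusted p = 1.61e-08), at 97.8 against 58.2 CPM, and *Gamt* was the 1 creatine cycle gene tested there. It was higher in 17 of 21 mice, and a permutation test over the mice did not separate the 2 clusters (p = 0.236, adjusted p = 0.286 over 24 tests).

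*Slc6a8* (chrX:73673150-73682502), the creatine transporter, was highest in the VSMC-labelled cluster, at 60.7 ± 30.0 CPM (n = 10 mice), with a lowest, median and highest mouse of 0, 70.2 and 90.1 CPM. The next clusters were APC2 at 20.1, VEC at 18.7 and beige adipocytes at 16.0 CPM. White adipocytes stood at 13.8 ± 5.88 CPM (n = 21) and B cells were lowest, at 8.66 CPM. Each VSMC library holds few nuclei, and a single count was worth up to 90.1 CPM. Pooled over mice, its 38 counts gave 4.30 times the level of white adipocytes (95% interval 2.98 to 6.05, counting error only).

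*Ckmt2* (chr13:91853387-91876885), the sarcomeric mitochondrial kinase, was concentrated in the same cluster. It stood at 102 ± 47.7 CPM (n = 10 mice), with 63.2, 90.8 and 213 CPM in the lowest, median and highest mouse and none at 0. The next cluster, Cd4 T cells, stood at 8.44 CPM, but this mean rests on 1 count among the 16 nuclei of day1CL replicate 3 (95.7 CPM) and was 3.84 CPM without that library. Cd8 T cells stood at 7.15 CPM, white adipocytes at 4.32 ± 2.45 CPM (n = 21) and beige adipocytes at 0.380 ± 1.25 CPM (n = 19). Its lowest VSMC library was thus above the mean of every other cluster. By pooled counts the level was 20.5 times that of white adipocytes (95% interval 14.3 to 29.0).

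The 2 genes were compared between the VSMC-labelled cluster and VEC in the 9 mice that had both. The filter on low counts left 183 genes and no creatine cycle gene, so the test was run without it, where 14.4% of 16627 genes passed and 3 of the 6 creatine cycle genes did. *Ckmt2* was higher in 9 of 9 mice, at 107 ± 48.4 against 7.06 CPM (log2 1.52, SE 0.29, edgeR adjusted p = 4.49e-06). With 55 counts against 3 over all libraries of the 2 clusters, the ratio of pooled levels was 15.0 (95% interval 4.88 to 75.1). This is more than the fitted value, which is drawn towards 0 at such low counts. The SE is drawn down with it and understates the error. *Slc6a8* was higher in 7 of 9 mice, at 65.1 against 13.5 CPM (log2 0.96, SE 0.29, edgeR adjusted p = 0.00789). *Ckb* was lower, at 23.3 against 72.7 CPM (log2 -0.78, edgeR adjusted p = 0.0362). In two-sided exact permutation tests over the mice, p was 0.00391 for *Ckmt2*, the smallest that 9 mice allow, and 0.0156 for *Slc6a8*, before correction for 24 such tests. For *Ckb* the exact permutation p was 0.125, and for *Alpl*, which edgeR did not call (adjusted p = 0.150), it was 0.0195.

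The *Ckmt2* counts of that cluster came from the 5′ part of the gene. Of 55 counts, the upstream peak 1 held 21 (38.2%), the gene-start peak 2 held 34 (61.8%), and the intronic peak 3 at chr13:91858800-91859171 held 0 of 589367 counts on genes, which allows a level of up to 5.09 CPM. In white adipocytes peak 3 held 59 of 87 counts (67.8%). Peaks 1 and 2 are those with the 2 matches to the MEF2 pattern and with the ERR and E-box matches printed above. In the same cluster *Slc6a8* peak 3 held 44.7% of that gene's counts, against 8.21% in B cells. Peak 3 also held much of the signal in white adipocytes, where peaks 1, 2 and 3 held 43, 127 and 114 counts (19 mice). In beige nuclei of these mice they held 10, 36 and 15. Counting error alone makes these shares uncertain where a cluster has under 100 counts.

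**Figure D2:**
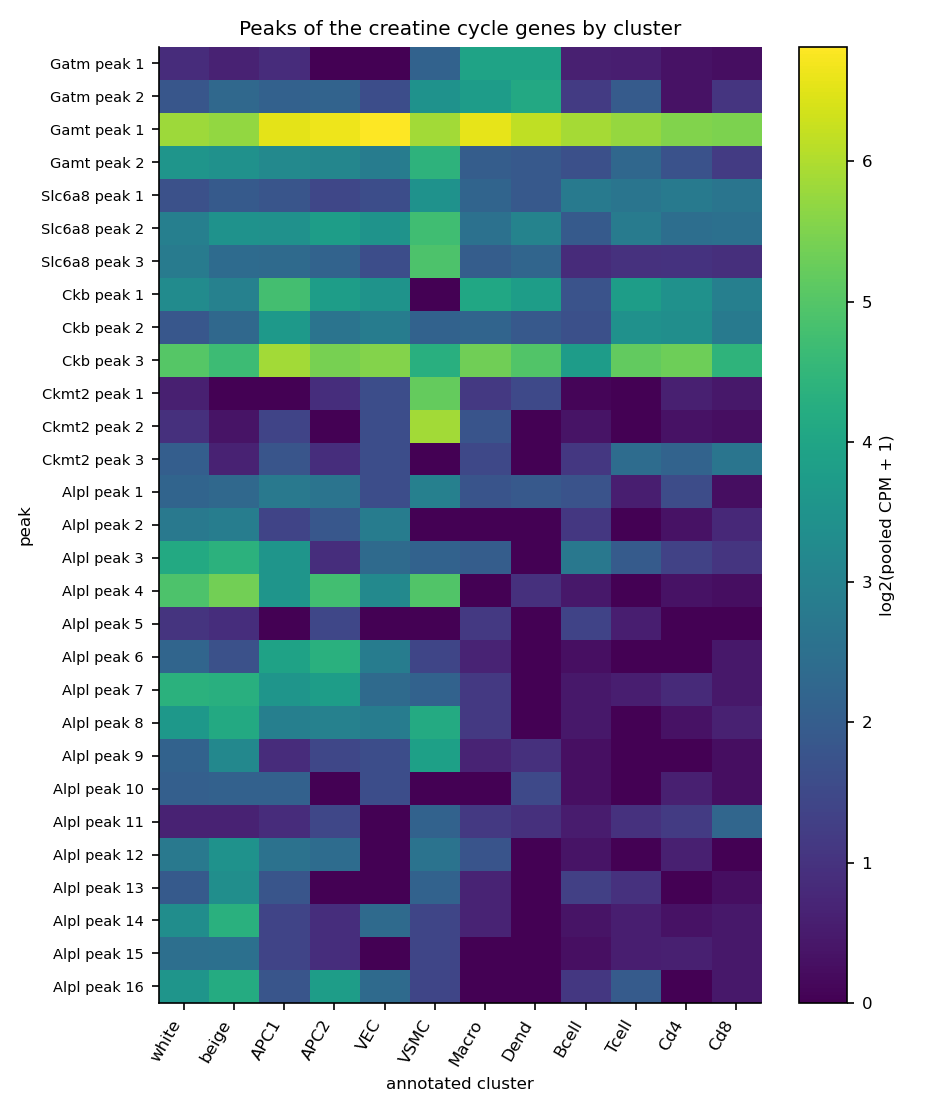
Accessibility (log2 of pooled CPM + 1, colour) of the 29 peaks of the creatine cycle genes (rows) in the 12 clusters (columns). In the VSMC-labelled cluster the counts of *Ckmt2* lie in peaks 1 and 2 (38.2% and 61.8%), while in white adipocytes 67.8% lie in peak 3.

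*Ckb* (chr12:111669361-111672338), the cytosolic kinase, was not an adipocyte-high gene by accessibility. It was highest in APC1, at 103 ± 57.2 CPM (n = 20; lowest, median and highest mouse 0, 92.7 and 226), followed by Cd4 T cells at 70.1 ± 54.3, macrophages at 69.8 and APC2 at 64.0 CPM. White adipocytes stood at 43.6 ± 6.36 CPM (n = 21) and beige adipocytes at 38.4 ± 19.6 CPM (n = 19), with B cells lowest at 16.3 CPM. No neighbours in the order of the 12 clusters were separated beyond their spread. Most of its adipocyte counts, 73.7% in white nuclei, lay in peak 3 at the 3′ end of the gene (chr12:111668290-111669502). The gene-start peak, which holds the MEF2 match, gave 29.1 ± 26.5 CPM in APC1, 8.31 ± 4.26 in white adipocytes and 0 of 589367 counts in the VSMC-labelled cluster, which allows up to 5.09 CPM.

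White adipocytes and the APC1 progenitors were compared within 20 mice. There 59.0% of 7531 genes passed the threshold, and all 3 creatine cycle genes that were tested did so. *Ckb* was lower in white adipocytes (log2 -1.09, SE 0.15, edgeR adjusted p = 1.05e-11), at 44.3 against 103 CPM. *Gamt* was also lower (log2 -0.52, edgeR adjusted p = 7.73e-04), at 70.5 against 110 CPM. *Alpl* was higher (log2 0.75, SE 0.15, edgeR adjusted p = 2.27e-06), at 127 against 75.0 CPM and in 17 of 20 mice. Without the filter 44.7% of genes passed, the median of all genes moved to 0.15 on the log2 scale, and *Gamt* no longer passed (log2 -0.26, edgeR adjusted p = 0.129), while *Alpl* and *Ckb* did. In permutation tests over the 20 mice, adjusted over 24 such tests, *Gamt* (adjusted p = 0.00176) and *Alpl* (0.00185) passed and *Ckb* did not (p = 0.0469, adjusted p = 0.0867), although it was higher in white adipocytes in only 2 of 20 mice. *Ckmt2* (adjusted permutation p = 6.00e-04) and *Gatm* (0.0417) also passed, as higher in white adipocytes in 17 and 15 of 20 mice. In APC1 they had no count in 18 and 16 of these mice. Mean *Gatm* was even lower in white adipocytes, at 3.45 against 5.58 CPM. Zeros in shallow libraries weigh on log2(CPM + 1), which limits these tests. Between macrophages and B cells without the filter *Ckb* was higher in 20 of 21 mice, at 69.8 against 16.3 CPM (log2 1.41, edgeR adjusted p = 9.72e-14). There 4 of the 6 genes passed in all, where 52.4% of all genes did. Among them *Ckmt2* (log2 0.58, edgeR adjusted p = 0.0370) rested on 9 counts in macrophages and 21 in B cells. It was higher in macrophages in 6 of 21 mice. In the permutation tests *Gatm* (adjusted p = 0.00134) and *Ckb* (adjusted p = 2.40e-04) passed, while *Gamt* (adjusted p = 0.286) and *Ckmt2* (adjusted p = 0.9995) did not.

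*Ckmt1* (chr2:121357714-121363737) had no peak on its body or upstream region. The nearest peak, at chr2:121354653-121355698, ends 2016 bases before its start and counts for *Ppip5k1*. No level can be given for the ubiquitous mitochondrial kinase.

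*Alpl* (chr4:137741733-137796384), the phosphatase, spans 54652 bases and 16 peaks. Its level was highest in beige adipocytes, at 184 ± 44.2 CPM (n = 19 mice), followed by white adipocytes at 132 ± 31.7 (n = 21), the VSMC-labelled cluster at 119 ± 55.2 (n = 10), APC2 at 110 ± 58.7 (n = 19), APC1 at 75.0 ± 56.5 (n = 20) and VEC at 58.6 ± 55.9 CPM (n = 15). The 6 immune clusters lay between 7.06 CPM in dendritic cells and 16.2 CPM in B cells. Over all 66 neighbour pairs of the 6 genes, the step from beige to white adipocytes was the only one past the threshold (two-sided permutation test over 19 mice, p = 2e-05, the smallest that 100000 resamples can give, adjusted p = 0.00132). Further down the *Alpl* order no neighbours were separated beyond their spread. Steps to or from the VSMC-labelled cluster had only 8 to 10 mice. With 9 mice the smallest permutation p is 0.00391, so these steps could hardly pass after adjustment over 66 tests. *Ckmt2* in that cluster against Cd4 T cells, at 102 against 8.44 CPM, gave a permutation p of 0.00781 in 9 mice.

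Beige and white nuclei of the same 19 mice were then compared across all genes. The lowest, median and highest beige library held 116, 169 and 292 CPM of *Alpl*, and the white libraries 87.9, 122 and 169 CPM, so the 2 ranges overlapped. Within mice, beige stood higher in 18 of 19. The smallest differences were in day3CL replicate 1, where beige was lower by a difference of -0.999 CPM, and in day7CL replicate 2, where both stood at 116 CPM. The fitted difference was 0.47 on the log2 scale (SE 0.07, edgeR adjusted p = 1.37e-07), a fold of 1.39, and *Alpl* ranked 583 among 10717 genes, of which 30.4% passed. Of the 3 creatine cycle genes that could be tested it was the 1 that passed.

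The mean gap was above 0 in every group. The mean beige minus white difference was 114 CPM in day0RT (71.0 to 144), 47.0 in day1C (42.9 to 53.3), 48.9 in day3C (10.4 to 104), 42.7 in day7C (33.3 to 52.9), 29.5 in day3CL (-0.999 to 53.2) and 48.3 in day7CL (0.0262 to 112). The 1 mouse of day1CL with enough beige nuclei gave 129 CPM. The 3 mice of day0RT thus held 3 of the 6 largest gaps. Their beige libraries were small, with 24, 12 and 22 nuclei and 70292, 16099 and 56767 counts on genes. In replicate 2, 3 counts are worth 186 CPM, which was its whole beige *Alpl* level. Whether the gap differed between groups was not tested. *Ucp1*, the uncoupling protein that marks the beige state, stood at 54.9 ± 36.2 CPM in beige and 5.86 ± 3.03 CPM in white nuclei. The skeletal muscle list summed to 83.8 to 311 CPM (median 141) in beige and 128 to 185 CPM (median 160) in white libraries, and the 7 smooth muscle and pericyte genes to 211 to 461 CPM (median 336) and 194 to 334 CPM (median 276). The part of these lists in the *Alpl* difference was not tested.

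**Figure D3:**
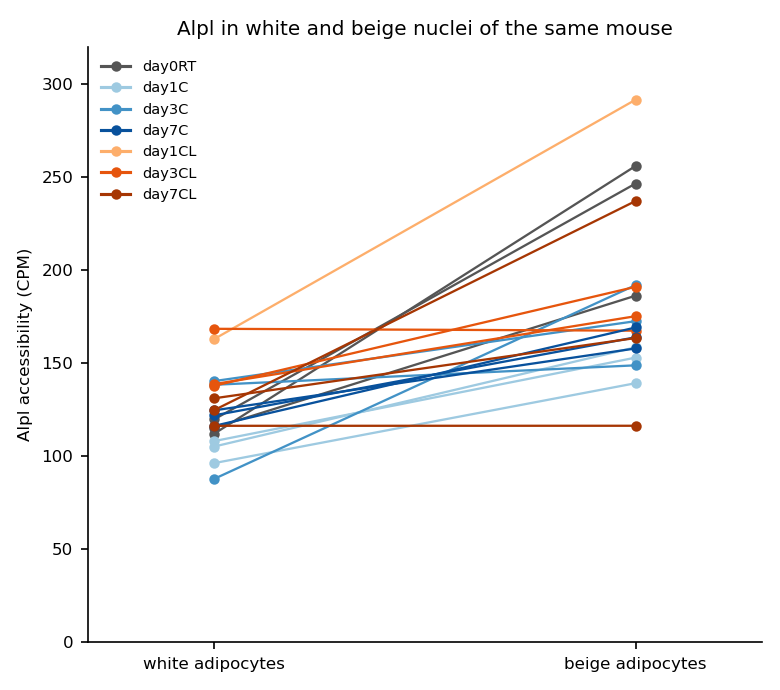
*Alpl* accessibility (CPM, y axis) in white and beige adipocyte nuclei (x axis) of the same 19 mice; lines join the 2 values of a mouse, coloured by group. Beige stands higher in 18 of 19 mice, with means of 184 and 125 CPM.

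The other 2 genes tested did not pass between beige and white nuclei. *Ckb* stood at 38.4 ± 19.6 CPM in beige and 44.3 ± 5.71 CPM in white nuclei and was higher in beige in 6 of 19 mice (log2 -0.25, SE 0.13, edgeR adjusted p = 0.125). *Gamt* stood at 58.9 ± 22.5 against 70.2 ± 9.88 CPM (log2 -0.12, SE 0.10, edgeR adjusted p = 0.414). Both were thus measured below the white level, within a spread that the test did not separate.

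*Ckmt2*, *Gatm* and *Slc6a8* fell under the filter and could be fitted only without it, where 24.3% of genes passed. There 1746 genes were called higher and 2435 lower in beige, from 1605 and 1653 with the filter. *Ckmt2* was lower in beige nuclei, with 3 counts against 87 over all libraries. In beige 17 of 19 mice had no count, and no mouse was higher in beige than in white (0.380 against 4.44 ± 2.32 CPM; log2 -0.97, SE 0.25, edgeR adjusted p = 8.74e-04). These tallies of mice depend on depth, as the smallest beige library held 16099 counts on genes. The ratio of pooled levels was 0.185 (95% interval 0.0374 to 0.558, counting error only). At each of the 3 peaks of the gene the mean was lower in beige: peaks 1, 2 and 3 stood at 0, 0.136 and 0.243 CPM (0, 1 and 2 counts) in beige and at 0.642, 0.883 and 2.91 CPM (10, 18 and 58 counts) in white nuclei of the same 19 mice. *Gatm* (edgeR adjusted p = 0.468) and *Slc6a8* (edgeR adjusted p = 0.626) did not pass.

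Within *Alpl* the beige and white levels were compared peak by peak. Of 11161 peaks deep enough to test, 16.0% passed, and 3 peaks of creatine cycle genes were among those tested. *Alpl* peak 4, printed above with its CEBP match, passed: it stood at 41.7 ± 26.7 CPM in beige and 29.9 ± 8.20 CPM in white nuclei and was higher in 13 of 19 mice (log2 0.42, SE 0.13, edgeR adjusted p = 0.0124). It held 22.3% of the *Alpl* counts of either cell type. *Ckb* peak 3 (log2 -0.37, edgeR adjusted p = 0.0592) and *Gamt* peak 1, which lies over the gene start (log2 -0.16, edgeR adjusted p = 0.354), did not pass. DESeq2 called none of the 3, with an adjusted p of 0.0520 for *Alpl* peak 4. Without the filter, where 21.1% of 189541 peaks passed, mostly as lower in beige (34843 against 5224 higher, from 946 and 835 with the filter), the median of all peaks moved to -0.19 on the log2 scale. Beside that shift, *Alpl* peak 4 stood at 0.08 and did not pass (edgeR adjusted p = 0.742). There 5 creatine cycle peaks passed: *Alpl* peaks 13 (log2 0.69, edgeR adjusted p = 0.00656) and 14 (log2 0.51, edgeR adjusted p = 0.0429) as higher in beige, and *Gamt* peak 1 (log2 -0.55), *Ckb* peak 3 (log2 -0.69) and *Ckmt2* peak 3 (log2 -0.79, edgeR adjusted p = 0.00193) as lower.

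Other *Alpl* peaks were too low for the filter, and those named here were chosen after their values were seen, apart from the gene-start peak. *Alpl* peak 14 stood at 23.7 ± 16.6 CPM in beige and 8.73 ± 3.73 CPM in white nuclei and was higher in 15 of 19 mice. It made up 10.5% of the *Alpl* counts of beige, 7.04% of white and 1.82% of VSMC-labelled nuclei. *Alpl* peak 16 stood at 17.3 ± 12.3 against 9.30 ± 3.87 CPM and was higher in 14 of 19, and it did not pass without the filter (log2 0.30, edgeR adjusted p = 0.285). Peak 7 had the opposite order and stood at 15.2 CPM in beige and 18.4 CPM in white nuclei. The gene-start peak 1 (chr4:137796316-137796629) was low in both, at 4.43 ± 7.17 and 3.02 ± 2.52 CPM. In APC1 a different intronic peak, peak 6, held 17.9% of the *Alpl* counts, against 2.80% in white adipocytes.

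**Figure D4:**
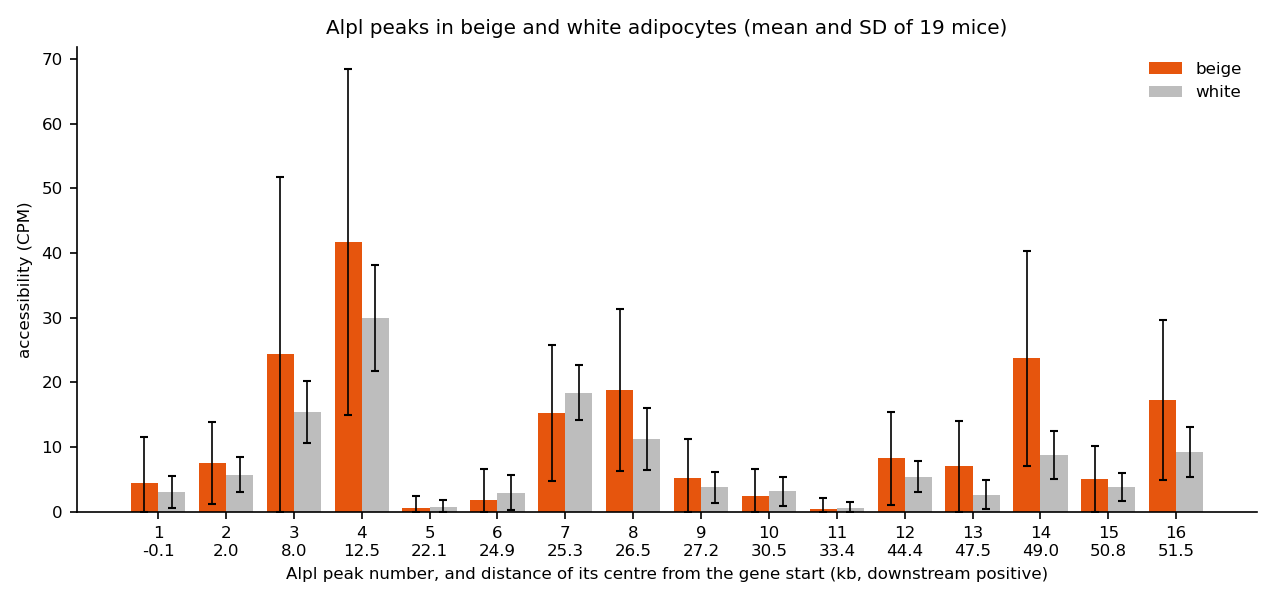
Accessibility (CPM, y axis, mean with SD over 19 mice) of the 16 *Alpl* peaks in beige and white adipocyte nuclei, placed by their distance from the gene start (x axis). Peak 4 is the highest in both (41.7 and 29.9 CPM), and peak 14 stands at 23.7 against 8.73 CPM.

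The treated groups were compared with day0RT in all adipocyte nuclei, beige and white together, over 14429 genes. Here 4 creatine cycle genes could be tested, and 1 passed, in 1 group. *Alpl* stood at 133, 119 and 128 CPM in the 3 mice of day0RT, at 307, 163 and 189 CPM in day1CL, and at 111, 114 and 100 CPM in day1C. All day1CL mice stood above all day0RT mice, and all day1C mice below them. For this and later separations of mice, how many of all genes or peaks lay so was not counted. The day1CL difference was 0.56 on the log2 scale (SE 0.15, edgeR adjusted p = 0.0259), in a comparison where 2.61% of genes passed. The day1C difference was -0.24 (edgeR adjusted p = 0.635), where 0.340% passed. The highest of these values, 307 CPM, came from a mouse with 29 adipocyte nuclei and 15 *Alpl* counts; without it the difference was 0.52 (edgeR adjusted p = 0.0486). Replicate 2 of day1CL held 68 adipocyte nuclei and 29 *Alpl* counts, and replicate 3 held 654 and 265. Most counts of the group thus came from 1 mouse. Without day1CL replicate 3 the edgeR adjusted p was 0.545, and without each day0RT mouse in turn it was 0.0518 to 0.111. Marker lists also stood apart between the 2 groups in these nuclei: the adipocyte list summed to 1719 to 1934 CPM in day1CL and 1998 to 2316 CPM in day0RT, the B cell list to 67.4 to 81.9 and 112 to 159 CPM, and the skeletal muscle list to 81.9 to 145 and 159 to 180 CPM. Their part in the difference was not tested.

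The 2 treatments were also set against each other on the same day. *Alpl* was higher in day1CL than in day1C by 0.80 on the log2 scale (SE 0.15, edgeR adjusted p = 0.00123), with no overlap between the mice, where 0.922% of genes passed, and it ranked 14 of 14429. In white nuclei alone this difference was 0.68 (edgeR adjusted p = 0.0250), while that against day0RT was 0.51 and no longer passed (edgeR adjusted p = 0.0984). Without day1CL replicate 3, day1CL against day1C was 0.81 with an edgeR adjusted p of 0.486. With promoter peaks only it was -0.13 (edgeR adjusted p = 0.963). Beige nuclei made up 7.69 to 12.2% of adipocyte nuclei in day0RT, 7.73 to 14.1% in day1C and 7.35 to 20.7% in day1CL; their part in the difference was not tested beyond the white-only values. A level in a pool of nuclei cannot tell more open nuclei from more nuclei of an open type.

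On later days *Alpl* lay near its starting level. It stood at 145, 102 and 140 CPM in day3C, at 138, 132 and 135 in day7C, at 168, 143 and 141 in day3CL and at 137, 116 and 152 in day7CL. The day3CL mice all stood above day0RT, with a difference of 0.21 that did not pass (edgeR adjusted p = 0.421). The share of all genes that passed was 1.68% in day3C, 5.08% in day7C, 4.77% in day3CL and 7.81% in day7CL against day0RT, and 1.46% and 0.111% for CL against cold on days 3 and 7; no creatine cycle gene was among them.

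*Slc6a8* in adipocytes was measured lower in most treated mice, without passing the test. It stood at 24.5, 17.6 and 19.6 CPM in day0RT, at 11.5, 7.44 and 14.9 in day1C and at 0, 11.2 and 11.4 in day1CL, where 1 count in the first mouse is worth 20.5 CPM. All mice of day1C, day3C, day1CL and day7CL stood below all day0RT mice. These statements reuse the same day0RT mice, with 12, 5 and 17 *Slc6a8* counts, and how many of all genes lay so was not counted. The day1C difference was -0.75 (SE 0.35, edgeR adjusted p = 0.435), that of day1CL -0.82 (edgeR adjusted p = 0.256) and that of day7CL -0.57 (edgeR adjusted p = 0.231). By day 7 of cold the mice stood at 18.2, 13.5 and 18.3 CPM. *Slc6a8* was the 1 creatine cycle gene with an unadjusted p under 0.05 in day1C, where 1439 of all 14429 genes had one. It was 1 of 2 with *Alpl* in day1CL, where 2189 of all genes had one. No creatine cycle gene had one in the other 4 groups against day0RT, where 2072 to 3230 of all genes did.

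*Gamt* and *Ckb* passed in none of the groups. The group means of *Gamt* lay between 62.3 CPM in day7CL and 78.8 CPM in day1CL, and those of *Ckb* between 38.9 CPM in day7C and 56.5 CPM in day1CL. That highest *Ckb* mean was lifted by day1CL replicate 1, at 81.9 CPM from 4 counts, beside 50.6 and 37.1 CPM. The fitted *Ckb* difference of day1CL from day0RT was -0.17 on the log2 scale (edgeR adjusted p = 0.784). *Gatm* and *Ckmt2* had group means of 2.32 to 5.30 CPM and were too low to be tested. None of these means was separated from day0RT by the test.

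**Figure D5:**
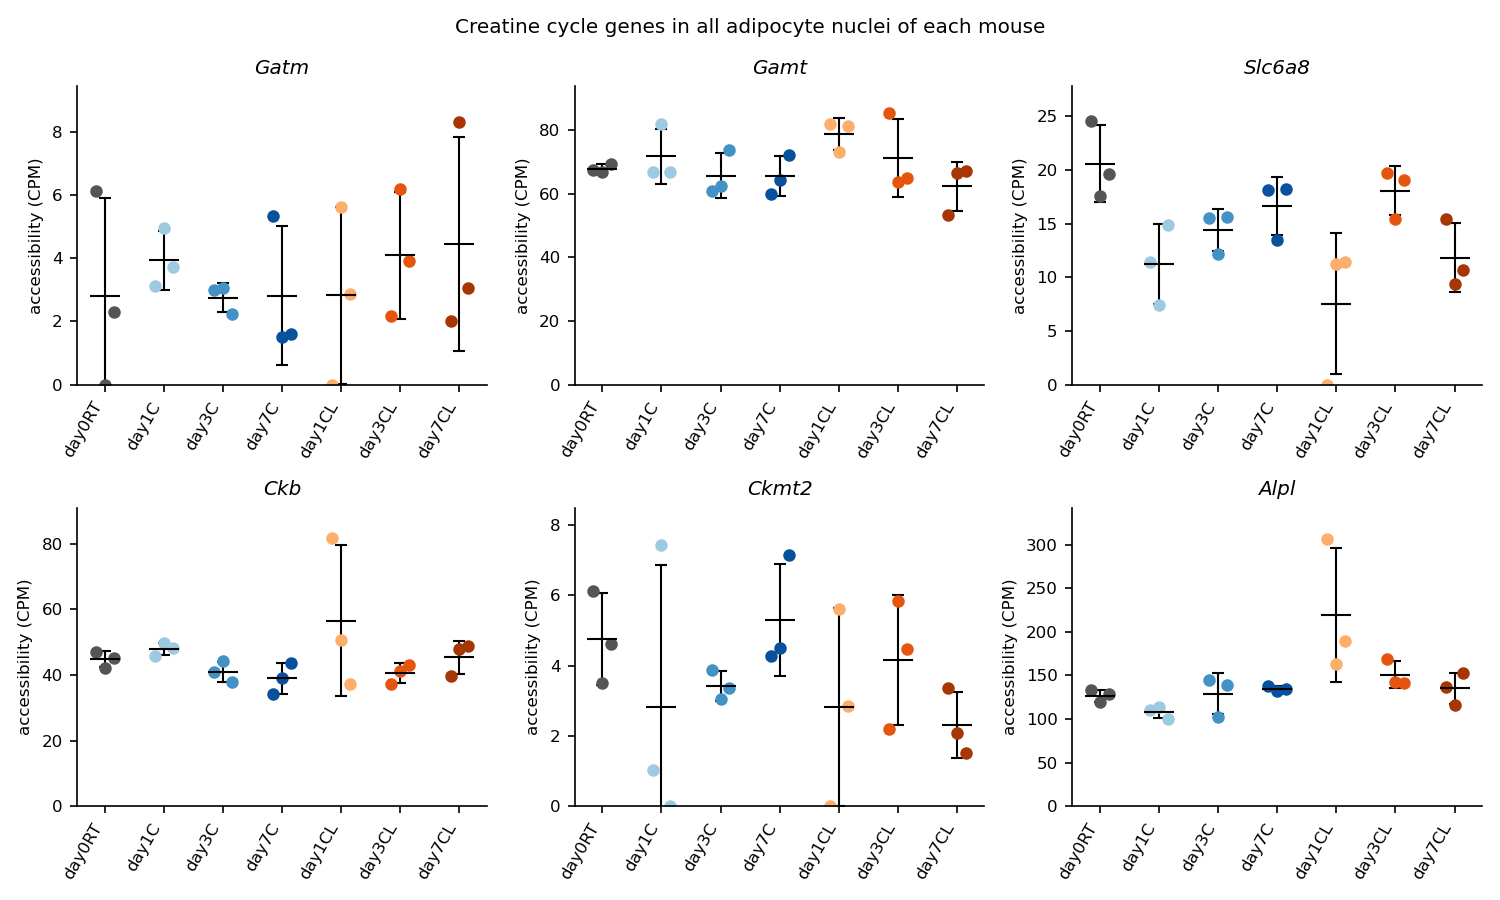
Accessibility (CPM, y axis) of the 6 genes in all adipocyte nuclei of each mouse (points) in the 7 groups (x axis), with group means as bars. *Alpl* stands at 163 to 307 CPM in day1CL against 119 to 133 CPM in day0RT. *Slc6a8* lies below its day0RT mice in day1C, day3C, day1CL and day7CL, where none of its differences passed the test.

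Peak by peak, none of the 10 creatine cycle peaks tested over the 7 groups passed, where 10.7% of 47835 peaks did. An unadjusted p under 0.05 was found for 3 of them, and for 12372 of all 47835 peaks. The nearest to the threshold were *Alpl* peak 3 (edgeR adjusted p = 0.0651), named after its values were seen, and the intronic *Gamt* peak 2 (edgeR adjusted p = 0.0774). *Alpl* peak 3 stood at 16.4, 17.6 and 16.2 CPM in day0RT, 11.5, 9.91 and 13.0 in day1C and 40.9, 28.1 and 27.1 in day1CL. *Gamt* peak 2 stood at 6.13, 7.02 and 5.78 CPM in day0RT and at 20.5, 16.9 and 20.0 in day1CL. In both the day1CL mice lay above all day0RT mice. However, 1 count in day1CL replicate 1 is worth 20.5 CPM. Its values thus rest on 2 counts at *Alpl* peak 3 and 1 count at *Gamt* peak 2. In replicate 2, 1 count is worth 5.62 CPM. In the single contrasts, *Gamt* peak 2 was the 1 creatine cycle peak that passed, in day1CL against day0RT (log2 1.43, SE 0.43, edgeR adjusted p = 0.0498), where 2.06% of all peaks did. The call was not stable: it held without day1CL replicate 1 (edgeR adjusted p = 0.0476) and was lost without each of the other 5 mice of the 2 groups, with an adjusted p of 0.0600 to 0.705, the highest without day1CL replicate 3. It was also lost without the filter (edgeR adjusted p = 0.179) and with DESeq2 (adjusted p = 0.385). The share of all peaks that passed was 0.213%, 1.28% and 3.13% in day1C, day3C and day7C, 3.46% and 4.19% in day3CL and day7CL, and 0.458%, 1.79% and 0.0230% for CL against cold on days 1, 3 and 7.

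Outside adipocytes no creatine cycle gene that could be tested over the treatments passed the threshold. In 7 other clusters with enough nuclei, 9 tests over the 7 groups could be made. They covered only *Alpl*, *Gamt* and *Ckb*, in APC2, macrophages, B cells, Cd4 and Cd8 T cells. In APC1 and T cells no creatine cycle gene was deep enough to test. Dendritic cells, VEC and the VSMC-labelled cluster had too few libraries for a fit. *Gatm*, *Slc6a8* and *Ckmt2* were thus not tested. None of the 9 tests gave an unadjusted p under 0.05: the lowest was 0.0736 and the lowest edgeR adjusted p 0.601. Among all genes 125 of 2018 had one in APC2, 188 of 3553 in macrophages and 1660 of 11502 in B cells. In Cd4 and Cd8 T cells 786 of 9617 and 957 of 10375 did. The share of all genes that passed was 0% in APC1 and macrophages, 0.0991% in APC2, 2.08% in B cells, 0.0520% in Cd4, 0.125% in Cd8 and 0.0172% in T cells.

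Around the cycle, 26 further genes supply its substrates, export creatine, exchange adenine nucleotides or belong to the other alkaline phosphatases, and 24 had a peak. Between beige and white nuclei 17 were tested, of which 6 were higher and 3 lower in beige, against the 30.4% of all genes that passed; their median was 0.15 on the log2 scale and that of all genes 0.013. *Slc16a12*, a creatine exporter, was lower in beige at 53.2 ± 33.7 against 113 ± 16.7 CPM and higher in 1 of 19 mice (log2 -1.02, SE 0.10, edgeR adjusted p = 9.57e-15). *Ak1*, the cytosolic adenylate kinase, was higher at 80.4 ± 33.3 against 52.0 ± 14.4 CPM and in 16 of 19 (log2 0.59, SE 0.10, edgeR adjusted p = 1.60e-06). *Ahcyl1*, a relative of S-adenosylhomocysteine hydrolase, was higher at 194 against 141 CPM (log2 0.46). *Mat2b* (log2 0.29), *Ak3* (0.26), *Vdac1* (0.23) and *Gnmt* (0.34), which uses methyl groups for glycine, were also higher, and *Ahcyl2* (log2 -0.22) was lower.

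Over the treated groups *Ak1* passed most often among the 21 of these genes that were tested. It stood at 42.9, 35.1 and 42.7 CPM in day0RT, at 67.8, 76.2 and 72.8 in day3CL and at 20.5 (1 count), 84.3 and 80.7 in day1CL. The day3CL mice lay above all day0RT mice, with a log2 difference of 0.83 (edgeR adjusted p = 0.00122). It passed in day1CL (0.89, edgeR adjusted p = 0.00550) and day7C (0.65, edgeR adjusted p = 0.0295) too, and in CL against cold on day 1 (0.79) and day 3 (0.51). *Ahcyl1* was higher in day3CL (0.45, edgeR adjusted p = 0.0218), and *Oat*, ornithine aminotransferase, was lower in day1CL (-0.72, edgeR adjusted p = 0.0351). The *Oat* mice overlapped, at 59.3, 84.3 and 78.6 CPM in day0RT and 81.9, 39.3 and 43.6 in day1CL. The calls of these listed genes were not repeated with 1 mouse left out. Between white adipocytes and APC1, 4 of 14 listed genes tested were higher and 4 lower (57.1% passed, against 59.0% of all genes), and between macrophages and B cells 4 of 10 were higher and 1 lower (against 48.6% of all genes). Without the filter, 6 of 24 were higher and 1 lower in the VSMC-labelled cluster than in VEC (29.2% passed, against 14.4% of all genes). In the other 7 clusters none passed over the groups.

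The genes whose mean levels followed each creatine cycle gene most closely over the 12 clusters were found among 16844 genes by Pearson's r of log2(CPM + 1). They describe shared libraries and depth as well as shared patterns. For *Alpl* they were *Gpam* (r = 0.977), *Slc34a2* (0.975) and *Pdk4* (0.971). For *Slc6a8* they were *Pvalb* (0.965), *Usp53* (0.957) and *C2cd2* (0.952), and for *Ckmt2* *Dusp27* (0.937), *Ano5* (0.910) and *Lrrc2* (0.903), all highest in the VSMC-labelled cluster. For *Gatm* they were *Gpr157* (0.927), *Cacng8* (0.919) and *Acp2* (0.918), highest in dendritic cells. For *Gamt* they were *Slc29a1* (0.947), *Wtip* (0.930) and *Spidr* (0.924), and for *Ckb* *Olfm2* (0.930), *Axl* (0.917) and *Il1rl2* (0.896), highest in APC1. Among the creatine cycle genes themselves the highest r was 0.713, between *Slc6a8* and *Ckmt2*, and that of *Alpl* and *Ckb* was 0.0147.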

How the data were processed

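Chromatin accessibility was measured by snATAC-seq in nuclei of iWAT from 21 mice. Per the submitters' processing notes and the study's methods, the authors aligned reads to mm10 with Bowtie2, handled them with SAMtools, called peaks with MACS2 in each initial cluster and merged them, removed likely doublets with Scrublet and clustered the nuclei with Signac. The deposited matrix holds counts that the authors had made binary (1 where a nucleus has a read in a peak) for 189598 peaks and 32552 nuclei. Levels can therefore saturate in deep nuclei. The 4 GEO samples are sequencing lanes, so the mouse, group and cluster of each nucleus were read from the deposited annotation.

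Counts were summed per mouse and cluster over peaks that overlap a protein-coding gene of GENCODE vM21 or its 2000 bases upstream. Of all peaks, 3.43% counted for 2 or more genes. Clusters in a mouse with under 10 nuclei were left out. Tests used edgeR 4.0.16 (quasi-likelihood, TMM, filterByExpr with a minimum count of 10, prior count 2) in R 4.3.3 over all genes or peaks, with Benjamini-Hochberg adjustment and a threshold of 0.05. Clusters were compared within mice (mouse as a block), and groups across mice in 1 fit. Each SE is the absolute log2 difference divided by the square root of the F statistic. The prior count draws the difference towards 0, so for sparse genes this SE is too small. Levels and permutation tests were computed in Python 3.11.15 on log2(CPM + 1). DESeq2 1.42.0 was an alternative, beside those named in the closing section. Intervals of pooled ratios are exact and, like the limits for a count of 0 (3 counts), cover counting error only. The scripts were tested on simulated data. Adipocyte libraries held 48868 to 3354348 counts on genes, VSMC libraries 11095 to 169166.

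The 7 members, the 26 pathway genes, the markers and the motifs were chosen with earlier results of these data known. Named were all members, their gene-start peaks and peaks past the threshold, up to 10 listed pathway genes past it in beige against white or in a treated group, and the 3 genes most like each member. The values of 1 listed gene are not reported here. Other peaks are marked in the text as chosen after their values were seen. Fits without the filter on low counts were added after seeing that it left sparse genes untested, except in beige against white. The alternatives for *Gamt* peak 2 and the *Ckmt2* mean without 1 library were also chosen after seeing the data. The labels do not say whether a replicate number marks a shared batch.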

Additional observations from a re-analysis of the deposited data

Results flagged for a closer look

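*Alpl* differed between the 2 treatments on day 1: it was higher in adipocyte nuclei of day1CL than of day1C by 0.80 on the log2 scale (edgeR adjusted p = 0.00123), a test of the difference itself, with all 3 mice of one group above all 3 of the other. Most day1CL counts came from replicate 3, with 654 adipocyte nuclei against 29 and 68 in replicates 1 and 2. Without replicate 3 the edgeR adjusted p was 0.486. With promoter peaks only the difference was -0.13 (edgeR adjusted p = 0.963). *Gatm* in the VSMC-labelled cluster stood at 67.5 CPM in day3CL replicate 2, far from the nearest of the other 9 mice at 29.6 CPM. The value rests on 1 count among 14817. Because 6 of the 10 mice had no count, how often such a gap is met by chance cannot be given.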

How the results depend on the processing

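*Alpl* in beige against white nuclei passed in all 34 alternatives that could test it (0.43 to 0.49) and was too low to test from promoter peaks alone (2000 bases around the start). Its day1CL difference passed in 23 of 30 alternatives against day0RT and in 28 of 30 against day1C. Of the 30, 21 left out 1 mouse of any group, and most of these mice were outside the comparison. Against day0RT 4 of these fits lost the call, each without a mouse of the 2 compared groups. Against day1C the call was lost without day1CL replicate 3, and with promoter peaks only, where the sign changed. Counts of creatine cycle genes past the threshold changed as follows. Beige against white it was 2 without the filter, 0 with promoter peaks only, and 1 to 2 with 1 mouse left out, where *Ckb* passed without day3C replicate 1 (-0.36, edgeR adjusted p = 0.0396). For treated groups against day0RT it was 0 with DESeq2, promoter peaks or white nuclei only, and 0 to 1 with 1 mouse left out; for CL against cold it was 0 with promoter peaks and 0 to 1 with 1 mouse left out. VSMC against VEC gave 3 without the filter (*Ckmt2*, *Slc6a8* and *Ckb*) and a different 3 by exact permutation (*Ckmt2*, *Slc6a8* and *Alpl*). Macrophages against B cells gave 4 without the filter, of which *Gamt* and *Ckmt2* did not pass by permutation. The order of clusters gave 0 neighbour pairs from promoter peaks. For peaks in beige against white it was 0 with DESeq2, 5 without the filter and 1 to 2 with 1 mouse left out. The causes were not tested.

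Some differences changed sign, and all of these but *Alpl* in day1CL against day1C had passed no test. With promoter peaks only, log2 differences from day0RT were 0.47 for *Alpl* in day1C; 0.56, 0.18, 0.56, 0.41 and 0.50 for *Ckb* in day3C, day7C, day1CL, day3CL and day7CL; and 0.034 and 0.089 for *Gamt* in day7C and day3CL. For CL against cold they were 0.14 and -0.14 for *Ckb* on days 1 and 3 and -0.13 and -0.29 for *Alpl* on days 1 and 7, the first of which had been called. DESeq2 gave 0.010 for *Gamt* in day3CL. White nuclei only gave 0.042 for *Gamt* in day7C, 0.055 for *Ckb* in day7CL and 0.085 for *Slc6a8* in CL against cold on day 7. For *Alpl* in that comparison, peaks of no other gene gave -0.00630 and nuclei with at least 2000 counts -0.012, and the latter gave 0.35 for *Slc6a8* on day 1. With 1 mouse left out, ranges from day0RT that cross 0 were -0.062 to 0.16 (*Alpl* day3C), -0.22 to 0.29 (*Ckb* day1CL), -0.11 to 0.10 (*Ckb* day7CL), and for *Gamt* -0.035 to 0.099 (day1C), -0.16 to 0.0062 (day3C), -0.080 to 0.034 (day3CL) and -0.13 to 0.016 (day7C). For CL against cold they were -0.29 to 0.23 (*Ckb* day 1), -0.36 to 0.074 (*Slc6a8* day 1), -0.028 to 0.14 (*Gamt* day 3), -0.22 to 0.020 (*Gamt* day 7) and -0.043 to 0.081 (*Alpl* day 7).

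Same-numbered mice of different groups did not deviate together (mean correlation -0.0025 over 63 pairs). With the replicate number as a block, *Alpl* in day1CL differed by 0.58 from day0RT (edgeR adjusted p = 0.0178) and by 0.83 from day1C (edgeR adjusted p = 0.00101), no call changed, and for CL against cold *Ckb* on day 3 (-0.023) and *Alpl* on day 7 (-0.00863) changed sign. A minimum of 30 nuclei left 1 mouse for VSMC against VEC and was not run there. Sparse genes limit the rest: in a VSMC library 1 count can be the whole level, day1CL replicate 1 holds 29 adipocyte nuclei, and *Gatm* and *Ckmt2* in adipocytes rest on a few counts per mouse.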
